A study of Homo sapiens with 48 samples.

Results

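CD9, CD24 and CD44, 3 cell surface proteins used to sort and stage stem and progenitor cells, were followed across every culture of a study on the human embryonic stem cell line WA09 (H9). They are 3 of the 452 genes on a targeted panel and were measured by 7 of its 1113 probes: all probes whose name carried one of these gene symbols, 3 for CD9, 3 for CD24 and 1 for CD44. The assay was RASL-Seq, in which pairs of DNA probes are annealed to poly(A) RNA, ligated where they sit side by side, amplified and counted by sequencing. The 48 libraries fell into 6 groups, all of WA09 cells with a genotype labelled normal. Embryoid bodies (EBs), aggregates in which stem cells differentiate without directed signals, were made from 20000 dissociated cells per well in Essential 6 medium over 7 days. For the first 24 hours 16 of them were given CEPT, a cocktail of chroman 1, emricasan, polyamines and trans-ISRIB that supports the survival of dissociated cells (CEPT EB). The other 16 were given Y-27632, a kinase inhibitor used for the survival of dissociated stem cells, over the same hours (Y27 EB). The control cultures, 4 libraries each, were untreated hESC, ectoderm, mesoderm and endoderm. Ectoderm was induced for 6 days in the same medium with the BMP receptor inhibitor LDN-193189 at 100 nM and the TGF-beta receptor inhibitor A83-01 at 2 µM. Mesoderm and endoderm were induced for 5 days with commercial kits. All came from 1 cell line, and the labels do not say whether libraries of a group were separate cultures, so p-values measure the spread between these libraries.

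CD9 is a tetraspanin, a protein that crosses the membrane several times and gathers integrins, EpCAM-family proteins and other partners into membrane patches; it is abundant on undifferentiated human stem cells. CD24 is a small, heavily glycosylated protein held in the membrane by a lipid anchor, present on pluripotent cells and on many neural and epithelial progenitors. CD44 is the main cell surface receptor for hyaluronan, a sugar polymer of the matrix, and is linked to actin inside the cell through ezrin-family proteins. It is typical of mesenchymal and migrating cells and is low on undifferentiated stem cells.

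Library totals ranged from 379810 to 5577868 reads, with a median of 3583316. Only Y27 EB replicate 15, at 379810 reads, lay under 0.25 of that median. Levels are given as CPM, the counts of a probe per 1000000 reads of its library, after scaling by the trimmed mean of M-values (TMM). Among the directed cultures, the summed germ layer markers on the panel were highest in the culture of their label. Mesoderm markers summed to 3567 to 4231 CPM in mesoderm, and endoderm markers to 6794 to 8018 CPM in endoderm. Ectoderm markers summed to 5033 to 5545 CPM in ectoderm. Single markers departed from this. EOMES and PDGFRA of the mesoderm list read 2.36 and 16.3 CPM in mesoderm but 427 and 53.3 CPM in endoderm. OTX2 of the ectoderm list read 444 CPM in ectoderm and 1530 CPM in endoderm. In hESC, NANOG summed to 2233 CPM over its probes, whereas the only POU5F1 probe read 9.69 CPM. The whole pluripotency list summed to 19452 to 21089 CPM in hESC. The sum was 16713 to 18623 CPM in endoderm and 13767 to 15239 CPM in ectoderm, against 4164 to 4464 CPM in mesoderm. Most of it was TDGF1 (8427 CPM) and LIN28A (7696 CPM) in endoderm, and SOX2 (6641 CPM) and LIN28A (6516 CPM) in ectoderm. Each other gene of the list was lower there than in hESC, such as NANOG at 76.6 CPM in endoderm and 0.116 CPM in ectoderm. Both EB arms carried far more RNA of the neuron list (7222 to 22072 CPM over 5 genes) than hESC (1741 to 2047 CPM). The Y27 EB replicate 15 library stood apart with 3873 CPM of mesoderm markers against a Y27 EB median of 39.5. Most of that sum was HAND1, which averaged 264 CPM over Y27 EB, where the other markers of the list averaged 1.36 to 20.6 CPM. In the mesoderm cultures T (2000 CPM) and CDX2 (1282 CPM) were the largest.

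The CD9 gene lies on chromosome 12 (6199946 to 6238266, GRCh38, plus strand), CD24 on chromosome 6 (106969831 to 106976855, minus strand) and CD44 on chromosome 11 (35139171 to 35232402, plus strand). Probe names give a RefSeq transcript and a number, read here as a position along that transcript, although the transcript version and the way of counting are not given in the sources used here. Read this way, CD9 probes 93, 94 and 95 sit at bases 269, 844 and 1116 of NM_001769. Probe 93 then falls in the coding part, in exon 2 of 8 of the paired GENCODE 29 transcript, and probe 95 in the 3′ untranslated part of the last exon. Probe 94 falls in the last exon close to the end of the coding part (base 787), so that its side of that boundary is uncertain. The CD24 probes 834 and 835 (bases 1223 and 2003 of NM_001291738) and 85 (base 1471 of NM_013230) all fall in the 3′ untranslated region, with 834 and 85 only 83 bases apart on the genome. The stretch of 30 bases starting at the position of probe 834 also occurs in a GENCODE 29 transcript of STT3A, a gene of protein glycosylation, so that reads of probe 834 may not all be CD24; the stretches of the other 6 probes occurred in no other gene. CD44 probe 86 (base 4149 of NM_001001391) falls in the 3′ untranslated region in the last exon, a stretch present in 2 of 26 coding CD44 transcripts. Probes to 1 gene read the same RNA pool and are not replicates. They also differed in yield: in hESC, CD24 probe 85 gave 0.0857 reads per read of probe 834, so levels were compared between groups for each probe and never between genes.

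Together, the 7 probes took 4.63% of all reads in hESC, 1.86% in mesoderm, 0.836% in endoderm and 0.601% in ectoderm, against 1.51% in CEPT EB and 1.95% in Y27 EB (means over libraries). CD24 alone took 4.26% in hESC and CD9 0.368%. All 7 probes passed the filter on low counts in each of 9 comparisons.

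**Figure D1:**
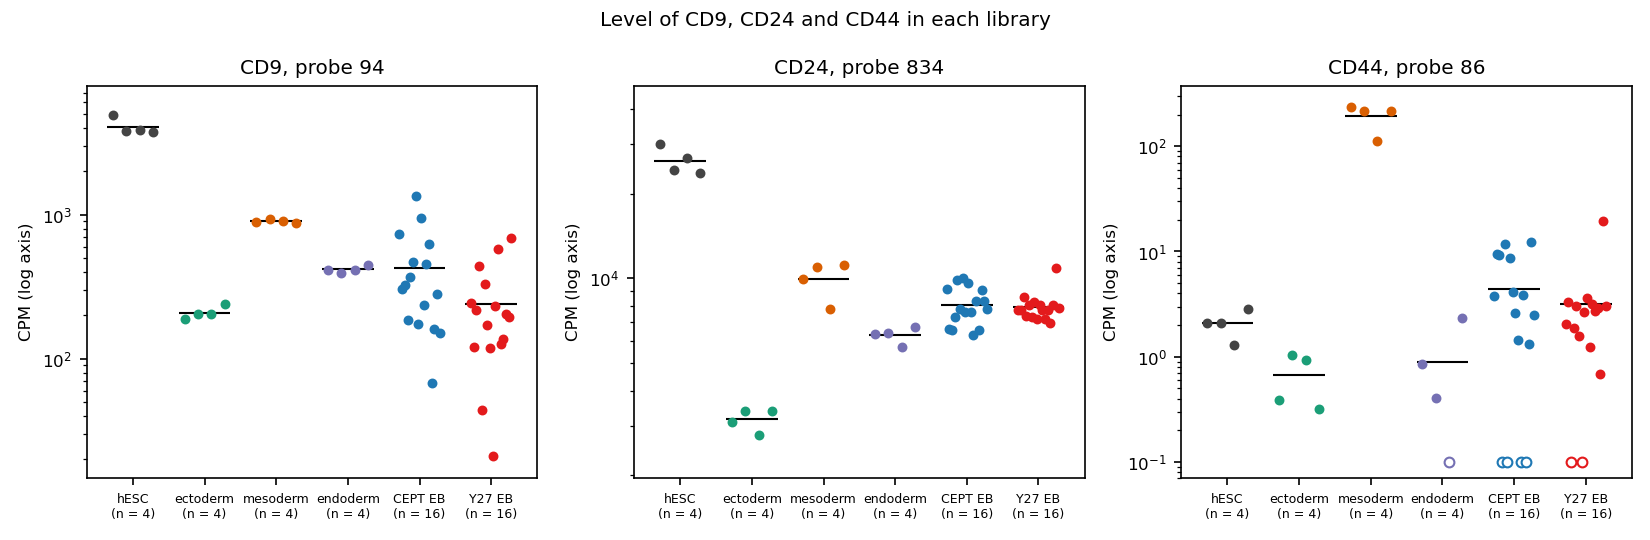
CPM (log axis) of CD9 probe 94, CD24 probe 834 and CD44 probe 86 in each of the 48 libraries, by group. Points are libraries in replicate order, bars are group means, and open circles drawn at 0.1 are libraries with 0 reads. CD9 and CD24 were highest in hESC, and CD44 was at 112 to 233 CPM in mesoderm and at most 19.3 CPM elsewhere.

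CD9 was far lower in the directed cultures than in hESC. Probe 94, the strongest CD9 probe, read 4876, 3809, 3884 and 3715 CPM in the 4 hESC libraries. In mesoderm it read 882, 935, 900 and 875 CPM, in endoderm 411, 393, 413 and 449 CPM, and in ectoderm 188, 203, 205 and 240 CPM. The 4 control groups did not overlap, and they stood in the order hESC, mesoderm, endoderm, ectoderm. Ranges were likewise apart for 77.8% of 861 well-counted probes between hESC and ectoderm, 70.4% between hESC and mesoderm and 73.1% between hESC and endoderm. Between the directed cultures the share was 74.6% for ectoderm and mesoderm, 76.5% for ectoderm and endoderm and 69.1% for mesoderm and endoderm. Relative to hESC, the log2 fold change was -2.41 ± 0.08 (SE) in mesoderm, -3.35 ± 0.08 in endoderm and -4.20 ± 0.09 in ectoderm (edgeR quasi-likelihood test, adjusted p = 1.48e-15, 3.68e-17 and 6.84e-18; 4 of 4 libraries below all hESC libraries in each). In bulk lysates, fewer CD9-positive cells and less CD9 RNA per cell cannot be told apart.

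The 2 weaker CD9 probes gave the same direction with far wider error. Probe 93 averaged 259 ± 40.7 CPM (SD, n = 4) in hESC, 130 ± 124 in mesoderm, 40.9 ± 20.2 in endoderm and 25.8 ± 20.0 in ectoderm. Probe 95 averaged 130 ± 22.3, 59.6 ± 45.9, 21.5 ± 7.42 and 11.9 ± 6.99 CPM in the same groups. The width came from replicate 3: mesoderm 3 read 317 CPM on probe 93 where the other 3 mesoderm libraries read 65.6 to 71.7, while probe 94 in the same library read 900. On probe 93 mesoderm 3 lay above every hESC library (at most 311 CPM). On probe 95, at 127 CPM, it lay within the hESC range of 115 to 162 CPM. Relative to hESC, probe 93 was at -3.28 ± 0.59 in ectoderm and -2.75 ± 0.57 in endoderm, and probe 95 at -3.41 ± 0.47 and -2.68 ± 0.44 (log2, SE; edgeR, adjusted p = 0.00012, 0.000476, 6e-06 and 4.67e-05). In mesoderm probe 95 was at -1.40 ± 0.40 (adjusted p = 0.00535 by edgeR). Probe 93 was at -1.27 ± 0.52 there (adjusted p = 0.0388 by edgeR), a call lost on leaving out any 1 of hESC 1, 2 or 4 or mesoderm 1, 2 or 4 (adjusted p from 0.0507 to 0.17) and under 8 other settings of scaling, filter or fit, but not under every one run.

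CD24 also fell in each directed culture, by less than CD9 probe 94 in fitted fold change, a difference between probes that was not tested. Probe 834, the strongest, read 30090, 24228, 26819 and 23647 CPM in hESC. It read 9922, 10989, 7797 and 11115 CPM in mesoderm, 6359, 6381, 5723 and 6703 CPM in endoderm, and 3097, 3378, 2791 and 3394 CPM in ectoderm. By probe 834 the groups again did not overlap and stood in the order seen for CD9. By probe 85 mesoderm (down to 773 CPM) and endoderm (up to 778 CPM) overlapped. Fold changes against hESC were -1.63 ± 0.11, -2.12 ± 0.11 and -2.97 ± 0.11 in mesoderm, endoderm and ectoderm (log2, SE; edgeR, adjusted p = 7.96e-11, 1.54e-12 and 1.18e-14). Probe 835 gave -1.64, -2.15 and -3.07, and probe 85 gave -1.26, -1.69 and -2.73 (adjusted p from 5.39e-08 to 3.7e-17 by edgeR). All 3 CD24 and all 3 CD9 probes were thus lower in each directed culture than in hESC. Over all 903 probes tested, 38.5% were called lower in ectoderm, 43.5% in mesoderm and 39.8% in endoderm.

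Scaling to the only reference genes on the panel, ACTB and GAPDH, raised the median over all probes of the log2 fold change against hESC by 1.27 in ectoderm, 0.905 in mesoderm and 0.464 in endoderm. GAPDH itself (probe 882) read 102061 CPM in hESC and 24450 to 50901 CPM in the other groups. On that scale all CD9 and CD24 probes stayed below hESC in the 3 directed cultures, but in mesoderm the calls of CD24 probe 85 (-0.31, adjusted p = 0.0558), CD9 probe 93 (-0.33, adjusted p = 0.574) and CD9 probe 95 (-0.46, adjusted p = 0.285) were lost in edgeR.

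CD44, unlike CD9 and CD24, was higher in mesoderm than in hESC. The single CD44 probe read 233, 215, 112 and 216 CPM there, from 618, 632, 235 and 669 reads. In hESC it read 2.08, 2.09, 1.30 and 2.82 CPM, from 4, 5, 2 and 5 reads. Every mesoderm library lay above every other library of the study. Ranges were apart for 55.4% of the 861 probes between mesoderm and CEPT EB and for 54.8% between mesoderm and Y27 EB. The log2 fold change over hESC was 6.27 ± 0.36 (SE; edgeR, adjusted p = 6.14e-12), where 34.0% of probes were called higher in mesoderm. As a share of all pooled reads, mesoderm was 102 times hESC (exact 95% interval 62.5 to 178), 286 times ectoderm (138 to 712) and 285 times endoderm (150 to 624). These intervals come from reads pooled over each group, so they leave out the spread between libraries. They and the limits for counts of 0 take reads as independent counts. The reads carry no molecular identifiers, so even counting error may not be fully covered.

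Other features measured in the mesoderm cultures were as follows. PTPRC, the only blood marker on the panel, was at most 0.377 CPM in any mesoderm library. Endothelial markers summed to 15.7 to 32.7 CPM in mesoderm and 269 to 294 CPM in hESC. In both groups this sum was nearly all KDR, at a mean of 25.4 and 285 CPM. PECAM1 and CDH5 averaged at most 0.386 CPM in either group, so the sum does not measure endothelial cells here. Mesenchyme and trophoblast markers were not on the panel. In mesoderm 3, the library lowest in CD44, the mesoderm markers summed to 4231 CPM, the highest of that group. Without it the CD44 fold change over hESC stayed called.

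In ectoderm and endoderm, CD44 was close to the limit of detection. Ectoderm libraries held 1, 3, 2 and 1 reads and endoderm libraries 2, 1, 0 and 6, against limits of 3 reads per library that a count of 0 allows. The fitted differences from hESC were -1.54 (95% interval -3.11 to 0.02) in ectoderm and -1.16 (-2.65 to 0.33) in endoderm, with adjusted p values of 0.0639 and 0.144 in edgeR. At this depth a decrease was not resolved. Upper-quartile scaling called both cultures lower in edgeR (adjusted p = 0.0371 and 0.0487), DESeq2 called ectoderm (adjusted p = 0.0487), and edgeR without endoderm 4 called endoderm (-2.16, adjusted p = 0.0294).

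Between the directed cultures, mesoderm lay above endoderm and endoderm above ectoderm for the strong probes. CD9 probe 94 was 0.94 ± 0.08 higher (log2, SE) in mesoderm than in endoderm, and the ectoderm to endoderm difference was -0.85 ± 0.08 (edgeR, adjusted p = 1.5e-09 and 7.34e-09). For CD24 probe 834 the mesoderm to endoderm difference was 0.49 ± 0.11 and the ectoderm to endoderm difference -0.85 ± 0.11 (edgeR, adjusted p = 0.000359 and 6.1e-07). Ectoderm against mesoderm gave -1.79 for CD9 probe 94, -1.34 for CD24 probe 834 and -7.82 for CD44 (edgeR, adjusted p = 1.42e-13, 1.21e-09 and 1.09e-12). All 7 probes were lower in ectoderm than in mesoderm, where 38.2% of all probes were, and higher in mesoderm than in endoderm, where 37.2% were. Between ectoderm and endoderm, with 39.9% of probes lower in ectoderm, all 3 CD24 probes and CD9 probe 94 were called lower in ectoderm. CD9 probes 93 and 95 were not (adjusted p = 0.425 and 0.197 by edgeR). That last contrast depended on scaling: with ACTB and GAPDH the median of all probes moved by 0.795, no CD9 or CD24 probe was called, and CD9 probes 93 and 95 changed sign. Without mesoderm 3, the mesoderm to endoderm calls of the weak CD9 probes were lost, with probe 93 at 0.66 (adjusted p = 0.176) and probe 95 at 0.71 (adjusted p = 0.0505) in edgeR. The probe 93 call was also lost without endoderm 1, 2 or 4, at 1.35 to 1.37 (adjusted p from 0.067 to 0.0687 by edgeR). In a single fit of all 48 libraries CD9 probe 94 was not called between mesoderm and endoderm (1.11, adjusted p = 0.15) or between ectoderm and endoderm (-0.99, adjusted p = 0.194 by edgeR).

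**Figure D2:**
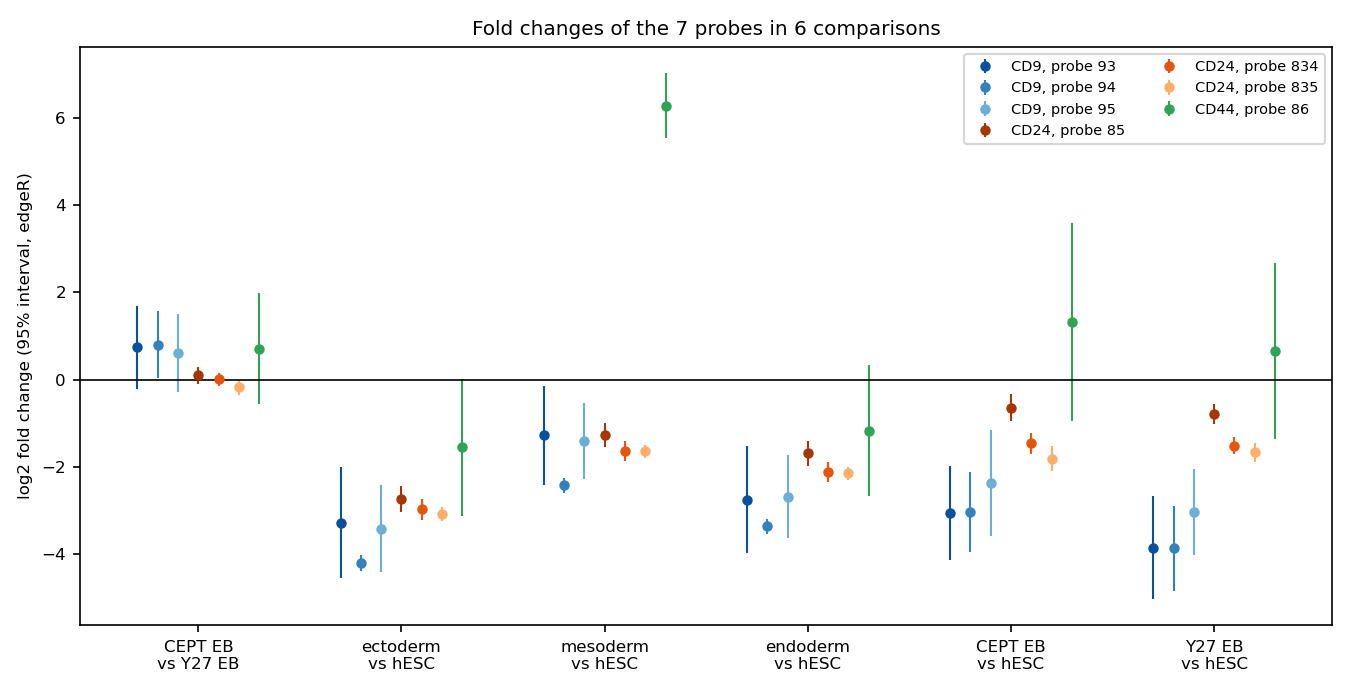
Log2 fold changes (edgeR, bars are 95% intervals) of the 7 probes in 6 comparisons. With the TMM scaling used here all CD9 and CD24 points against hESC lie below 0 (CD24 probes 834 and 85 turn above 0 in both EB arms with ACTB and GAPDH scaling), CD44 lies at 6.27 in mesoderm, and the CEPT EB to Y27 EB points lie between -0.18 and 0.80.

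In EBs, CD9 ranged from library to library more than between the EB arms. Probe 94 ran from 67.5 to 1339 CPM in CEPT EB (median 314) and from 21.1 to 684 CPM in Y27 EB (median 199). The arms overlapped over most of their range, and all 32 libraries lay below the lowest hESC library (ranges apart from hESC for 61.2% of the 861 probes in CEPT EB and 61.0% in Y27 EB). Mean CPM was 426 ± 339 for CEPT and 241 ± 184 for Y-27632 (SD, n = 16 each). The log2 fold change of CEPT EB over Y27 EB was 0.80 ± 0.38 (SE, 95% interval 0.03 to 1.58), with p = 0.0422 unadjusted and 0.128 adjusted in edgeR, so it was not called. Without Y27 EB replicate 16, the highest of its arm, it was 1.00 with an adjusted p of 0.0479 in edgeR. No other single omission gave a call. Over the 32 omissions it ran from 0.59 to 1.00, with adjusted p up to 0.277 in edgeR. Probes 93 and 95 gave 0.74 (-0.21 to 1.69) and 0.61 (-0.28 to 1.50), with adjusted p values of 0.287 and 0.367 in edgeR.

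The spread of CD9 within an arm was wide even for EBs. The coefficient of variation of CD9 probe 94 was 79.6% with CEPT and 76.2% with Y-27632, where the median over probes with at least 50 reads on average was 29.1% (669 probes) and 26.9% (694 probes). CD24 probe 834 varied by 15.4% and 11.4% in the same libraries. In the 4 mesoderm libraries CD9 probe 94 varied by 2.97%, and in hESC by 13.3%. The weaker probes 93 and 95 varied by 95.4% and 77.0% in mesoderm, where replicate 3 stood apart, so wide CD9 values were not confined to EBs.

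CD24 was nearly level between the EB arms. Probe 834 ran from 6321 to 10062 CPM in CEPT EB (median 7792) and from 6958 to 10884 CPM in Y27 EB (median 7744). Their difference was 0.01 (95% interval -0.14 to 0.16, adjusted p = 0.919 by edgeR). It changed sign when scaled to library totals alone (-0.32, adjusted p = 0.0126 by edgeR). Probe 85 gave 0.10 (-0.09 to 0.29), or -0.23 by library totals alone. Probe 835 was at 5608 ± 1086 CPM in CEPT EB and 6283 ± 782 CPM in Y27 EB, a difference of -0.18 (-0.34 to -0.01; adjusted p = 0.123 by edgeR). By library totals alone it was -0.51 (adjusted p = 5.04e-05 by edgeR), a scale on which the median of all probes also moved by -0.313.

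CD44 was low and patchy in EBs. CEPT EB libraries held 0 to 51 reads, with 4 libraries at 0, and Y27 EB libraries 0 to 22 reads, with 2 at 0. Means were 4.43 ± 4.36 and 3.20 ± 4.45 CPM (SD, n = 16 each). The fitted difference was 0.71 (95% interval -0.57 to 1.98, adjusted p = 0.485 by edgeR). The highest CPM, 19.3, was that of the shallow Y27 EB replicate 15, from 9 reads, the library with 3873 CPM of mesoderm markers, mostly HAND1. In CEPT EB the highest CD44 library, replicate 15 at 12.2 CPM, had 77.8 CPM of mesoderm markers, and the library with the most of them, replicate 16 at 455 CPM, had 2.51 CPM of CD44. Over the arm comparison none of the 7 probes was called by edgeR, and 2 had an unadjusted p under 0.05 (CD9 probe 94 and CD24 probe 835), while 23.6% of the 867 probes tested were called.

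Against hESC, both EB arms were lower in CD9, and lower in CD24 by TMM scaling but not by scaling to ACTB and GAPDH. CD9 probe 94 was at -3.02 ± 0.44 in CEPT EB and -3.86 ± 0.47 in Y27 EB, and CD24 probe 834 at -1.46 ± 0.12 and -1.51 ± 0.10 (log2, SE; edgeR, adjusted p = 1.95e-06, 1.37e-07, 2.06e-10 and 4.46e-12). All 6 CD9 and CD24 probes were called lower in each arm, where 31.2% and 32.6% of all probes were. Both comparisons share the 4 hESC libraries, and the labels tie no EB library to a control batch, so handling and group cannot be told apart here. The CD24 result depended on scaling: with ACTB and GAPDH, which raised the median of all probes by 1.53 in CEPT EB and 1.58 in Y27 EB, probe 834 turned to 0.10 and 0.07, probe 85 turned to 0.91 and 0.80, and probe 835 (-0.24 and -0.09) was no longer called in edgeR. CD9 probes stayed lower on that scale, with probe 95 in CEPT EB no longer called (-0.74, adjusted p = 0.32 by edgeR). CD44 did not pass in either arm (1.33, -0.94 to 3.59, and 0.65, -1.36 to 2.66), but with ACTB and GAPDH it was 2.84 in CEPT EB (adjusted p = 0.034 by edgeR).

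Ordered by mean level, CD9 probe 94 ran hESC, mesoderm, CEPT EB, endoderm, Y27 EB, ectoderm. Only the step from hESC to mesoderm separated the ranges of neighbouring groups, since the wide EB ranges overlapped those of their neighbours. By CD9 probes 93 and 95 hESC and mesoderm overlapped as well. CD24 probe 834 ran hESC, mesoderm, CEPT EB, Y27 EB, endoderm, ectoderm. Here mesoderm, CEPT EB and Y27 EB overlapped in turn, while hESC, endoderm and ectoderm were each clear of the neighbouring group (ranges of endoderm and Y27 EB were apart for 62.7% of the 861 probes). Endoderm, up to 6703 CPM, still overlapped CEPT EB, which reached down to 6321 CPM. The other CD24 probes differed in this. By probe 835 endoderm overlapped its neighbour CEPT EB. By probe 85 both EB arms had higher means than mesoderm, and mesoderm and endoderm overlapped. For CD44 the mesoderm group alone was clear of the others.

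The probes of 1 gene rose and fell together across EBs. CD9 probe 94 followed probe 93 with Pearson r = 0.85 in CEPT EB and 0.83 in Y27 EB, and probe 95 with r = 0.84 and 0.87 (n = 16 libraries each; permutation p from 1e-05, the smallest that 100000 resamples give, to 0.00014; adjusted p from 0.00014 to 0.000327 over a family of 14 relations). Spearman's rank correlation was 0.86 and 0.88 for probe 93 and 0.89 and 0.84 for probe 95, with permutation p values from 1e-05 to 0.00011. Without the 2 libraries farthest from the median, r stayed between 0.81 and 0.91. Both arms therefore contained libraries rich and poor in CD9 by every CD9 probe.

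EPCAM, an epithelial adhesion protein of the stem cell surface and a known partner in tetraspanin patches, varied with CD9. This pair was added after its values were seen. EPCAM probe 223 was taken because it had the lowest adjusted p of the EPCAM probes between the EB arms in edgeR. Correlations with the other EPCAM probes were not run. Over libraries, EPCAM probe 223 against CD9 probe 94 gave r = 0.83 in CEPT EB and 0.80 in Y27 EB (permutation p = 0.00012 and 0.00042, adjusted 0.000327 and 0.00084; n = 16 each). Spearman's rank correlation was 0.67 and 0.72 (permutation p = 0.00547 and 0.00248). Without the 2 libraries farthest from the median CD9 level r was 0.63 and 0.57. The CD9-richest library, CEPT EB 7 with 1339 CPM, held 460 CPM of EPCAM, and the poorest of that arm, CEPT EB 13 with 67.5 CPM, held 18.1 CPM. Neuron markers ran the other way in these libraries: 7222 CPM in CEPT EB 7, the lowest of all EBs, and 22038 CPM in CEPT EB 13, the highest of its arm. In Y27 EB, replicate 16 (684 CPM of CD9) had 12705 CPM and replicate 9 (21.1 CPM of CD9) had 19616 CPM of neuron markers. These libraries were picked by their CD9 level, and a relation over all EB libraries was not tested. CEPT EB 15, with 281 CPM of CD9, had 21085.5 CPM of neuron markers. Most of the neuron sum was TUBB3, with a mean of 10912 CPM in CEPT EB and 12016 CPM in Y27 EB. The part of cell composition in the CD9 values was not tested.

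CD9 and CD24 gave unlike values in the EB arms. CD9 probe 94 against CD24 probe 834 gave r = 0.53 in CEPT EB (permutation p = 0.0339, adjusted 0.0431, n = 16; Spearman's rank correlation 0.48, permutation p = 0.065) and r = -0.12 in Y27 EB (permutation p = 0.618; Spearman's rank correlation -0.19, permutation p = 0.482). The CEPT EB value rested on 2 libraries, falling to 0.29 without CEPT EB 7 and 13, and turned to -0.19 when levels were scaled to library totals alone. On that scale the Y27 EB value moved to -0.55. The 3 CD24 probes followed each other less tightly in CEPT EB (r = 0.67 and 0.65 of probe 834 with 835 and 85; permutation p = 0.00487 and 0.00647) than the values in Y27 EB read (0.84 and 0.77; permutation p = 0.00059 and 0.00012), a difference that was not tested. Without Y27 EB replicate 15 the 834 to 835 value in Y27 EB was 0.59.

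**Figure D3:**
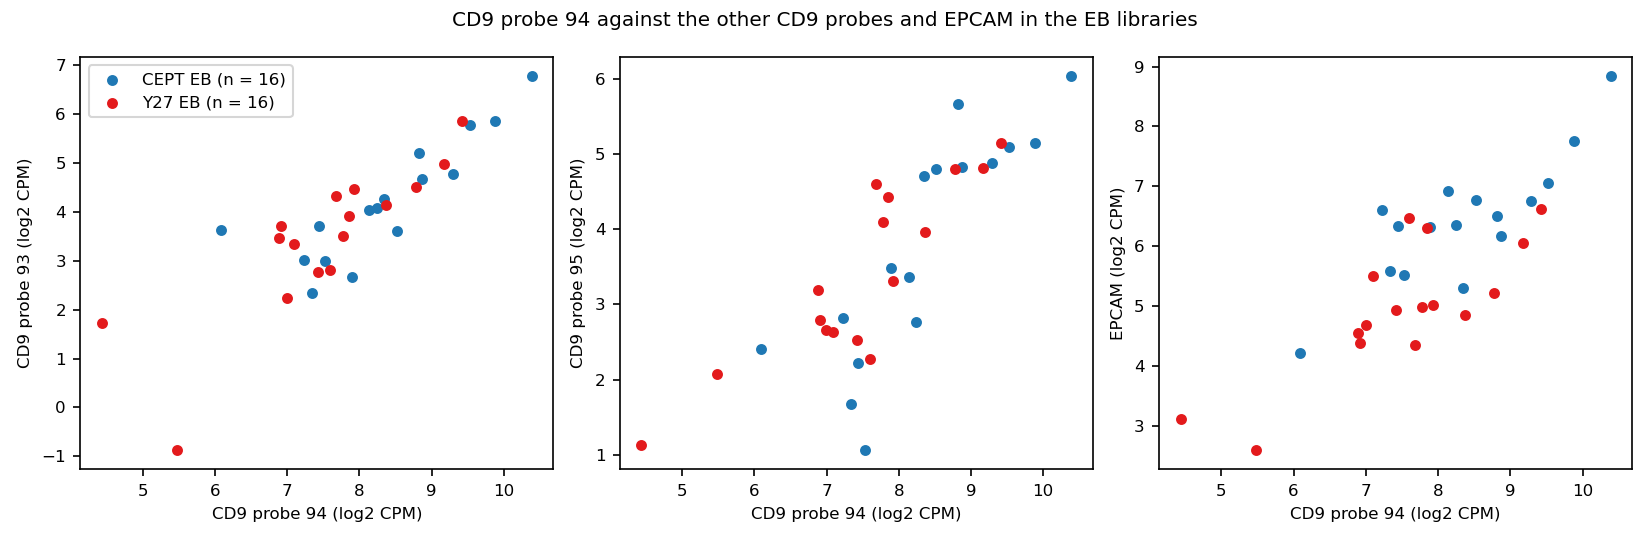
Log2 CPM of CD9 probe 94 against CD9 probe 93, CD9 probe 95 and EPCAM probe 223 in the 16 CEPT EB and 16 Y27 EB libraries, 1 point a library. Libraries high in CD9 by 1 probe tended to be high by the others and, with more exceptions, in EPCAM, in both arms.

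Reads of 2 probes of the same gene in 1 library can be compared without any scaling. CD9 probe 93 gave 0.0643 ± 0.0130 reads per read of probe 94 in hESC (SD, n = 4). In ectoderm, mesoderm and endoderm replicate 3 stood alone at 0.273, 0.352 and 0.172, where the other libraries of these groups reached at most 0.0823, 0.0820 and 0.0750. Probe 95 against probe 94 was likewise highest in replicate 3 of each, at 0.109, 0.141 and 0.0775. CD24 probe 835 per read of probe 834 was highest in those same 3 libraries within their groups, at 0.909, 1.12 and 0.927. Group means of that CD24 ratio were 0.883 in hESC, 0.826 in ectoderm, 0.894 in mesoderm and 0.870 in endoderm, against 0.700 ± 0.0925 for CEPT and 0.795 ± 0.0487 for Y-27632 EBs (SD, n = 16 each). The difference between the EB arms in this log2 ratio was -0.19 (permutation p = 0.00081, two-sided; adjusted p = 0.0199), in a test chosen after the values were seen, which passed for 6.87% of 466 pairs of probes of the same gene. CD24 probe 85 per read of probe 834 was 0.0857 in hESC, 0.0998 to 0.115 in the directed cultures and 0.150 and 0.140 in CEPT EB and Y27 EB.

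**Figure D4:**
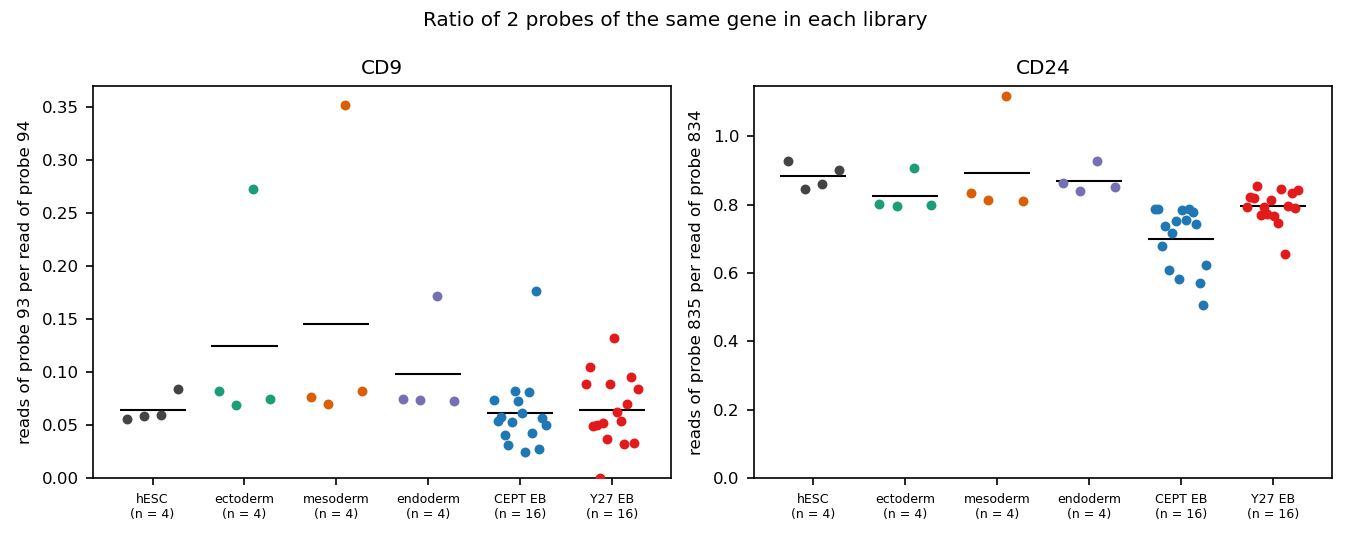
Reads of CD9 probe 93 per read of probe 94, and of CD24 probe 835 per read of probe 834, in each library by group, with bars at group means. Replicate 3 of ectoderm, mesoderm and endoderm stands above the rest of its group in both panels, and CEPT EB reaches down to 0.505 for CD24.

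The rest of the membrane neighbourhood of these proteins was thinly covered by the panel, and the lists used were chosen with earlier results of these data known. Of 42 tetraspanins and membrane partners listed, 3 were on the panel: EPCAM, CLDN1, a tight junction protein, and IFITM1, an interferon-induced membrane protein. Of the 2 tested between the EB arms, EPCAM (1.51 ± 0.36 by probe 223, 112 ± 103 against 39.8 ± 27.9 CPM) and IFITM1 (1.20 ± 0.38 by probe 386) were both higher in CEPT EB (edgeR, adjusted p = 0.0025 and 0.0187), with a list median of 1.25 against -0.04 over all probes. All 3 genes were lower than hESC by at least 1 probe in ectoderm and in both EB arms, where 38.5%, 31.2% and 32.6% of single probes were called lower. In mesoderm 2 were lower and 1 had probes called both ways. In endoderm all 3 were higher than hESC, while CD9 was lower there. The log2 fold changes were 3.01 for CLDN1 (probe 1101), 1.53 for EPCAM (probe 225) and 1.67 for IFITM1 (probe 385, adjusted p = 1.79e-11, 6.26e-08 and 5.81e-10 in this order by edgeR).

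Of 34 genes of hyaluronan, CD44 ligands and their actin linkers, only EZR and CD74 were on the panel. EZR encodes ezrin, which ties CD44 to actin, and CD74 encodes the invariant chain, a partner of CD44 in cytokine signalling. In mesoderm, where CD44 was high, CD74 was 2.12 higher than hESC by probe 92 (154 ± 16.9 against 29.9 ± 4.95 CPM) and EZR was -1.13 by probe 231 (668 ± 70.6 against 1236 ± 21.9 CPM; edgeR, adjusted p = 5.67e-10 and 8.76e-10). CD74 was also higher than hESC in ectoderm and both EB arms, and lower in endoderm (-2.64, adjusted p = 1.36e-09 by edgeR). Between the EB arms CD74 was lower in CEPT EB (-0.53, adjusted p = 0.0017 by edgeR) and EZR was not called. None of the 5 listed CD24 ligands was on the panel.

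Among 14 other surface markers on the panel, 13 were tested between the EB arms. Of these, 3 were higher in CEPT EB, 3 were lower and 7 were not called. TM4SF1, a small membrane protein of the tetraspanin-like family, was 2.73 ± 0.56 higher (17.4 ± 11.7 against 2.74 ± 1.93 CPM), EPCAM 1.51 ± 0.36 and the Wnt receptor FZD5 0.87 ± 0.21 higher, and the Wnt receptor FZD7 was at -0.71 ± 0.11 (log2, SE; edgeR, adjusted p = 0.000553, 0.0025, 0.00193 and 8.95e-06). In mesoderm against hESC 6 of 12 tested were higher and 6 lower, in endoderm 8 and 3, and in ectoderm 7 and 4. These are genes called by any of their probes (31 probes in all), so the shares of single probes called higher, 34.0%, 38.4% and 43.2%, are not on the same footing. Of the 9 epithelial and mesenchymal genes, 5 of 8 tested were higher and 3 lower in mesoderm than in hESC. There VIM, the intermediate filament of mesenchymal cells, was higher by 6.31, from 353 ± 26.6 to 33109 ± 1567 CPM (probe 787, adjusted p = 1.2e-19 by edgeR). EPCAM was at -3.84 in these cultures (probe 223, adjusted p = 1.23e-16 by edgeR). Neither change was particular to the culture high in CD44. VIM was also above hESC in ectoderm (3.64, probe 787), endoderm (4.18, probe 786), CEPT EB (5.41, probe 788) and Y27 EB (5.50, probe 788). EPCAM was also below hESC in ectoderm and both EB arms.

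Patterns most like those of the 3 markers were sought among 861 probes with at least 50 reads on average in their highest group, by Pearson correlation over the 6 group means of log2 CPM, as a description. Nearest to CD9 probe 94 were GAPDH, an enzyme of glycolysis (r = 0.97), EIF5A, a translation factor (0.97), and NR5A2, a nuclear receptor (0.97). The CD9 probes 95 and 93 gave 0.99 and 0.97. Over the 32 EB libraries, with arm means subtracted, the same genes gave 0.09, 0.26 and 0.33, and the other CD9 probes 0.84 and 0.84. Nearest to CD24 probe 834 were CXCL5, a chemokine (0.99), PGK1, an enzyme of glycolysis (0.94), and SLC25A5, a mitochondrial carrier (0.94), with 0.38, -0.10 and 0.20 over the EB libraries. Nearest to CD44 were FOXF1, a transcription factor of lateral mesoderm (0.98), GAD1, which makes GABA (0.98), and CDX2, a transcription factor of posterior embryo and gut (0.97). All 3 were near 0 outside mesoderm, at most 3.63 CPM in any other group mean. Over the group means all points rest on the same 48 libraries, and for CD44 the value is set by 1 group.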

How the data were processed

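RASL-Seq libraries were made on oligo-dT capture plates, per the labels' protocols. The authors deposited raw counts: reads assigned to each probe pair by a custom aligner, per the labels. Its version and the probe sequences are not given in the sources used here. The submitters' processing notes name hg38 and DESeq2, without a role. A merged table held the same counts in 48 columns, and 16 further columns matched no sample and were not used.

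Counts were tested with edgeR 4.0.16 in R 4.3.3 (filterByExpr by group, TMM, robust quasi-likelihood fit), two-sided, with Benjamini-Hochberg adjustment over all probes tested and a threshold of 0.05. The EB arms were fitted with 32 libraries, the directed cultures with the 16 control libraries, and each EB arm against hESC with these groups only. Log2 CPM used a prior count of 2. Correlations were tested by 100000 permutations, two-sided, with scipy 1.17.1. The fit was tested on simulated data. Alternatives covered scaling, filters, DESeq2 1.42.0, a single fit of all 48 libraries, the replicate block and leaving out libraries. Named genes were the members, the 3 genes most alike per marker, up to 4 called genes per list and comparison, and the culture markers. The listed genes were those with the largest absolute log2 fold change, and the named probe of a gene can differ between comparisons. Members and lists were chosen with earlier results of these data known.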

Additional observations from a re-analysis of the deposited data

Results flagged for a closer look

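In groups of 4 libraries, the highest or lowest log2 CPM was set against the gap to its neighbour by Dixon's test at its 95% critical value. Of 28 combinations of a group and a probe, 5 stood apart (17.9%), where chance gives about 1 in 20. The probes of a gene share their RNA, so these are not independent.

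For CD9 probe 93, mesoderm replicate 3 was high at 8.31, against 6.05 to 6.18 in the other 3 libraries, and endoderm replicate 3 at 6.16, against 4.89 to 5.05. For CD9 probe 95, ectoderm replicate 3 was high at 4.52, against 3.05 to 3.30. CD44 in mesoderm replicate 3 was low at 6.81, against 7.75 to 7.87. For CD9 probe 94, hESC replicate 1 was high at 12.25, against 11.86 to 11.92. CD9 probe 94 itself did not stand apart in any replicate 3 library.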

How the results depend on the processing

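Over all alternatives, fold changes of the 7 probes kept direction and call in 1362 cases, lost the call in 34, gained it in 8 and changed sign in 13. Counts of called probes stayed within 1.5 times in 196 cases and moved further in 9. Scaled by library totals alone, 339 probes were called between the EB arms instead of 205, with CD24 probe 85 at -0.23 and probe 834 at -0.32, and the correlation of CD9 probe 94 with CD24 probe 834 in CEPT EB was -0.19. With at least 10 reads required in every library, fewer probes could be tested, and 426 were called in ectoderm against hESC, 395 in mesoderm, 400 in endoderm, 428 in ectoderm against mesoderm, 411 in ectoderm against endoderm, 404 in mesoderm against endoderm, 426 in CEPT EB against hESC and 407 in Y27 EB against hESC. Scaled to ACTB and GAPDH, CD24 probes 85 and 834 against hESC were 0.91 and 0.10 in CEPT EB and 0.80 and 0.0665 in Y27 EB, and ectoderm against endoderm was 0.23 for CD9 probe 93, 0.0493 for probe 95 and 0.38 for CD44, which was 0.0062 by library totals alone. Leaving out single libraries gave -0.0053 to 0.0453 for CD24 probe 834 between the EB arms and -0.71 to 0.60 for CD44 in ectoderm against endoderm; the cause was not tested. The share of called probes that were higher moved with scaling to ACTB and GAPDH from 52.85% to 75.97% in ectoderm, 43.86% to 71.81% in mesoderm, 49.15% to 60.39% in endoderm, 57.54% to 87.8% in CEPT EB and 56.02% to 86.34% in Y27 EB against hESC, and from 44.88% to 14.16% between the EB arms with library totals alone. CD9 calls between the directed cultures were also lost in the single fit of all 48 libraries, which shares 1 spread with the more variable EBs: probe 94 was at 1.11 (adjusted p = 0.15) in mesoderm and -0.99 (adjusted p = 0.194) in ectoderm against endoderm.

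Replicate numbers did not meet the rule for pairing, that every pair of libraries with the same number correlates over 0.1. Between CEPT EB and Y27 EB, same-numbered libraries had correlations of -0.271 to 0.173, with 3 of 16 over 0.1, and 0 of 16 correlated best with their own number. In ectoderm and mesoderm, and in ectoderm and endoderm, 3 of 4 pairs were over 0.1, up to 0.584 and 0.454, both in replicate 3, and in mesoderm and endoderm 2 of 4. In ectoderm and endoderm 4 of 4 libraries correlated best with their own number, a hint from the data and not from the design. With a replicate block, 167 probes were called between the EB arms and 752, 724 and 720 in ectoderm, mesoderm and endoderm against hESC. CD9 probe 93 in mesoderm against hESC was then at -1.64 (adjusted p = 0.000773 by edgeR), and CD44 in ectoderm against hESC passed (-1.55, adjusted p = 0.0242 by edgeR). Depth limits CD44 outside mesoderm, where libraries held 0 to 51 reads.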

Other observations

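The balance of 2 CD24 probes differed between the EB arms. Probe 835 per read of probe 834, both named for 1 CD24 transcript, was under the Y27 EB median of 0.795 in 16 of 16 CEPT EB libraries, in a test chosen after the values were seen. The ratio needs no scaling between libraries. The stretch at the position of probe 834 also occurs in a transcript of STT3A, so that probe may not read CD24 alone, and its part in the ratio was not tested. The log2 difference was -0.19 (adjusted p = 0.03 by the permutation test) without the shallow Y27 EB library and -0.16 (adjusted p = 0.0347) without CEPT EB replicate 15, the lowest. The ratios of probe 834 to 85 (-0.08, permutation p = 0.218) and of probe 835 to 85 (-0.28, permutation p = 0.0192, adjusted 0.123) did not pass. For CD9, no pair of probes passed (adjusted p from 0.311 to 0.919 by the permutation test).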
